A study of Mus musculus with 8 samples.

Results

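The interleukin 10 cluster holds 4 cytokine genes, Il24, Il20, Il19 and Il10, on mouse chromosome 1. Open chromatin there was followed in macrophages by ATAC-seq, a method that lets a transposase cut accessible DNA. The macrophages were grown from bone marrow for 7 days with 25% conditioned medium of L929 cells, a fibroblast line that secretes the growth factor M-CSF. The cells came from wild-type (WT) mice or mice deficient in NFAT5 (KO), and were left untreated or given 0.3 ng/ml of Escherichia coli lipopolysaccharide (LPS) for 2 h. There were 2 libraries in each of the 4 groups (WT untreated, WT LPS, KO untreated, KO LPS). The sources used here do not give how Nfat5 was deleted, or the strain, age and sex of the mice. The peaks of the 8 deposited lists were merged wherever they shared at least 1 base, which gave 87260 consensus regions. A region belonged to the cluster when its nearest protein-coding gene body, within 100 kb, was that of a cluster gene. These were 12 regions, of which 9 were assigned to Il10, 2 to Il20, 1 to Il19 and 0 to Il24.

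Interleukin 10 restrains inflammation: it acts on macrophages and other cells through a receptor of IL10RA and IL10RB and the transcription factor STAT3, and lowers the output of inflammatory cytokines and of antigen presentation. Macrophages make it after they sense bacterial products, as a brake that follows the first inflammatory genes. Interleukins 19, 20 and 24 belong to the same structural family but act mainly on epithelial cells, through receptors that contain IL20RA, IL20RB or IL22RA1. NFAT5 is a transcription factor known for the response to high salt and also for a part in macrophage responses to LPS.

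A library was said to call a region with which any of its peaks shared at least 1 base, and the covered bases of a region were its bases under peaks of that library. The lists held 54027 to 60117 peaks, with no counts or scores, so depth is unknown and a region that was not called was not shown to be closed. All 10 macrophage marker genes, among them Csf1r and Spi1, overlapped a region called in all 8 libraries. So did 3 of 8 T cell markers (Cd3d, Lck and Cd28), 0 of 7 B cell markers, 2 of 7 neutrophil markers and 2 of 6 markers of fibroblasts or stroma. Cd3e, Cd3g, Cd8a, Cd79a and Pax5 had no region at all. Nothing in the labels says that the libraries of a group came from separate cultures or animals, so p-values measure the spread between these libraries only. Fewer cells with an open site and a weaker signal per cell cannot be told apart in such bulk samples.

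By the nearest-gene rule, most of the 12 regions belonged to Il10, among them those 32.1 and 30.2 kb before it. The count of a gene also depends on how far away its neighbouring genes lie, which was not adjusted for. Il10 (gene ID 16153, chromosome 1, 131019845 to 131024970, GRCm38) had 9 regions, more than 88.7% of the 21887 protein-coding genes, whose median was 2. Il20 (130906985 to 130911296) had 2, and Il19 (130932656 to 130945457) had 1 outside its body. Il24 (130882074 to 130887411) had none, as did 25.1% of protein-coding genes, and the region nearest to it lay 4.71 kb away inside Fcmr, the gene of the receptor for IgM. Stretches of 33.5, 34.7 and 25.6 kb without any called peak separated the regions between Il20 and Il10. Across the cluster, 3 of 12 regions (25%) were called in all 8 libraries, against 41.3% of all consensus regions. Another 3 were called in a single library, a share of 25% against 20.1% of all.

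**Figure D1:**
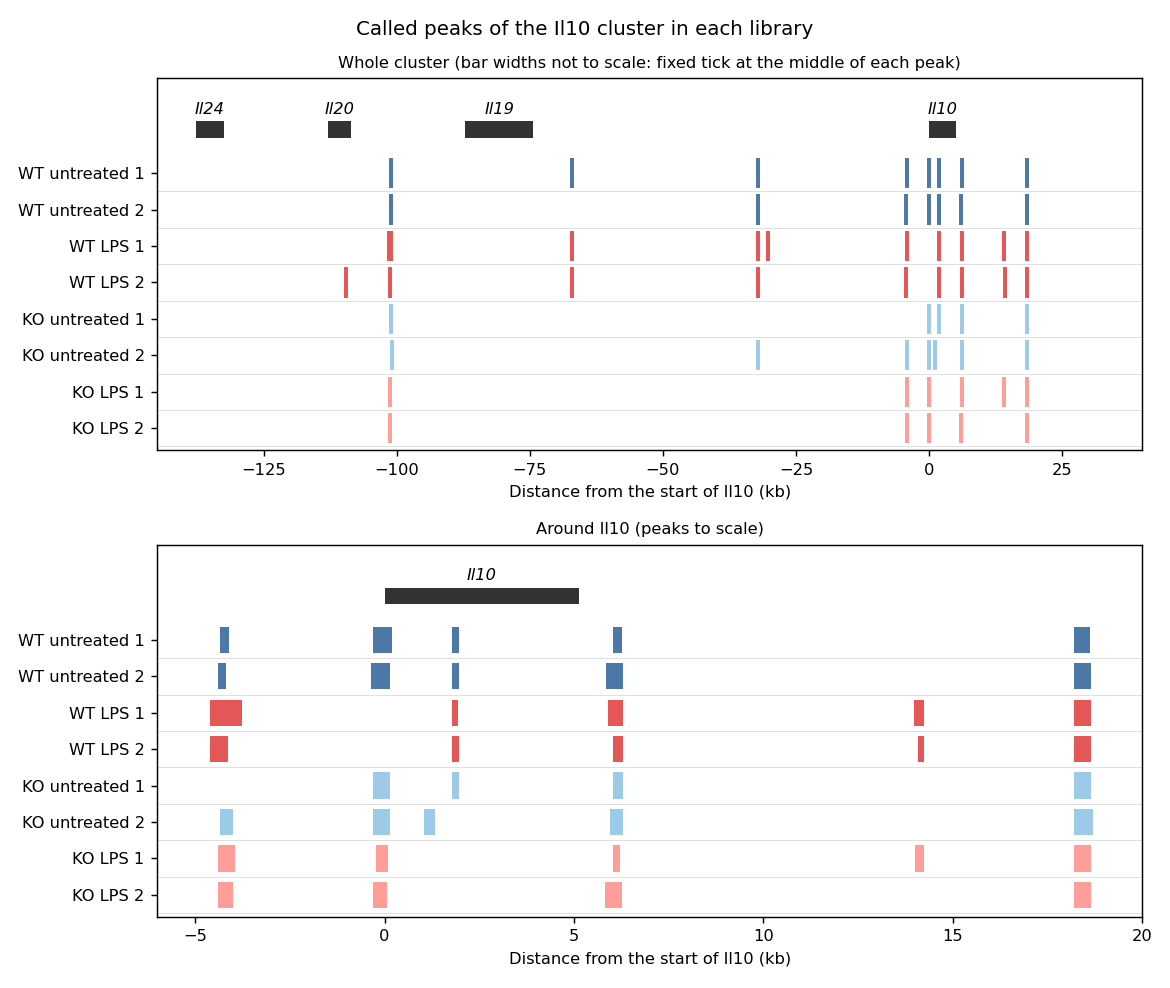
Called peaks of the 12 regions in each of the 8 libraries, by distance from the start of Il10 in kb, with gene bodies in black. The upper panel marks each peak by a tick over the whole cluster and the lower panel draws the peaks around Il10 to scale. Peaks gather at Il10, and the peak at its start is missing from both WT LPS libraries.

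The windows at the starts of Il20 and Il19 are shown because no library called a peak in either, unlike at the start of Il10. They are RefSeq sequences of build GRCm38.p6, from 250 bases before to 50 after the start, on the minus strand, 5′ to 3′, and 2 of the 4 cluster genes had such an entry. The Il20 window is chr1:130911247-130911546 and the Il19 window chr1:130940066-130940365, the latter inside the annotated gene body, which extends beyond this start. Capitals mark matches on either strand to the letters GGAAA (the core bound by NFAT proteins), GGGA and CC spaced by any 4 bases (NF-kB), TTNNGNAA (C/EBP), TTCNNNGAA (STAT) and GAGGAA (PU.1).
Il20: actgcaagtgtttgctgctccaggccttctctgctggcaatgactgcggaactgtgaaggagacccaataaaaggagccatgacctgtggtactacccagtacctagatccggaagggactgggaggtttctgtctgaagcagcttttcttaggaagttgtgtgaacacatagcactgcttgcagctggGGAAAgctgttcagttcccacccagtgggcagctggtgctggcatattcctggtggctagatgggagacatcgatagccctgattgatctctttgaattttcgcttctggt
Il19: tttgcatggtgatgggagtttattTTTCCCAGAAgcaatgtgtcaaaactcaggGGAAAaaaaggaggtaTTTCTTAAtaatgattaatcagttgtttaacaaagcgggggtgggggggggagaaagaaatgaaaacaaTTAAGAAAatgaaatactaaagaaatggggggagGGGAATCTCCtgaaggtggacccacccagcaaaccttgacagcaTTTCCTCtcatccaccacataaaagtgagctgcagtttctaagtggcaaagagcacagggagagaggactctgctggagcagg
The Il20 window held 1 match, to the NFAT core. That core occurred in 59.9% of the 21263 RefSeq windows of this length. The Il19 window held 3 NFAT cores, 2 C/EBP matches (in 37.3% of windows), 1 NF-kB match (23.0%), 1 STAT match (7.69%) and 1 PU.1 core (27.4%). The STAT match overlaps an NFAT core, and another NFAT core overlaps the PU.1 core. Neither window matched AP-1 (TGANTCA, 6.99%), the core of a cAMP response element (TGACG, 23.6%), the core of a Maf site (TGCTGA, 18.1%), a GC box (GGGCGG, 46.2%) or a TATA box (TATAAA, 12.6%). The nearest region to the Il20 window lay 0.651 kb away and to the Il19 window 12.2 kb away. Windows without any region were common, 47.8% of all.

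The start of Il10 carried a peak in 6 libraries, and the WT LPS libraries were the other two. Il10 is transcribed toward higher coordinates, so this region (131019493 to 131020036) covers its start. Untreated WT peaks were 493 and 488 bases wide. Those of KO were 436 and 441 bases wide untreated and 317 and 372 with LPS, while neither WT LPS library called the region. All 4 LPS values were below all 4 untreated values. With LPS the mean was 172.2 ± 200.2 covered bases (SD, n = 4) and without LPS 464.5 ± 30.2 (two-sided exact permutation p = 0.0286, the smallest that 70 arrangements allow, adjusted p = 0.270 over all regions).

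The peaks at the start were centred alike in the libraries that called them. Their middles lay 55 to 108.5 bases before the start of Il10. In untreated cells they reached from 296 to 352 bases before the start to 135 to 191 bases after it. In KO cells with LPS they began 213 and 294 bases before it and ended 103 and 77 bases after it, so both ended nearer the start than any untreated peak. Untreated peaks were wider than 49.1% to 57.3% of the peaks of their lists, and those of KO with LPS wider than 34.5% and 45.0%. The peaks at the start were thus of about median width where they were called, and not at the lower limit of the lists, whose narrowest peaks had 156 to 174 bases.

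The start of Il10 was the only cluster region that counted as lost with LPS in WT (called in both untreated libraries and neither LPS library). This was 1 of 12 regions, against 5.06% of all regions. None of the 12 was lost in KO, against 4.07%. It was also the only region called in both KO and neither WT library with LPS, 1 of 12 against 2.03% of all. Regions that overlapped a RefSeq start window of any protein-coding gene were lost in WT in 96 of 9116 cases (1.05%). With LPS they were called in KO only in 32 (0.351%). Such windows were available for 79.9% of protein-coding genes, and Il10 itself had none. The difference between the genotypes in the LPS change was not tested, since 2 libraries against 2 allow only 3 splits, too few for a small p.

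**Figure D2:**
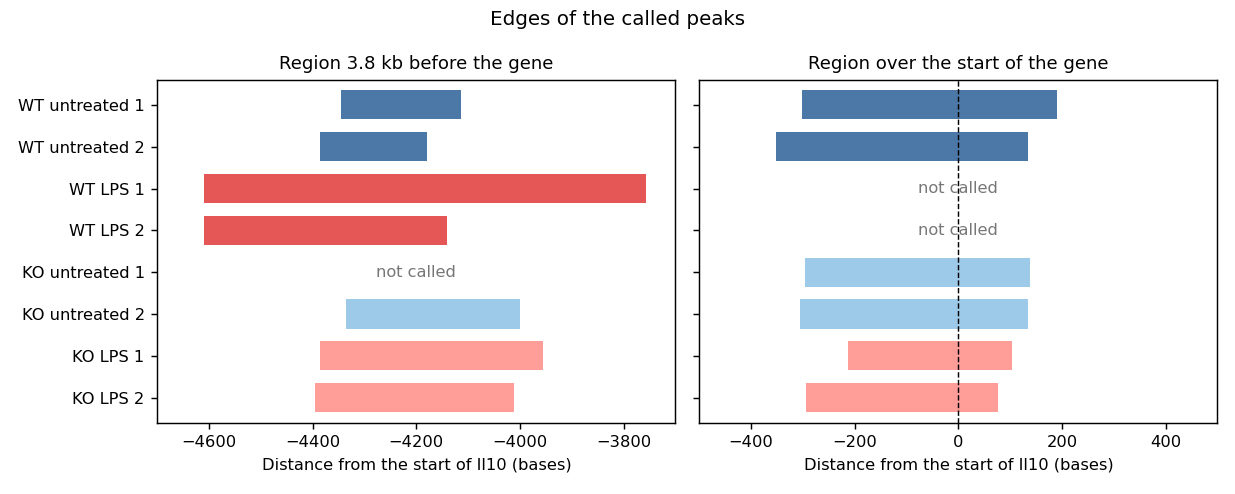
Edges of the called peaks in each library, in bases from the start of Il10, at the region 3.76 kb before the gene (left) and over its start (right, dashed line). At the left region both WT LPS peaks begin 4610 bases before the start, and at the right region the WT LPS libraries have no peak.

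Upstream of Il10, a region whose near edge lies 3.76 kb from the gene (131015235 to 131016089) went the opposite way. It was 233 and 208 bases wide in untreated WT and 855 and 470 with LPS. In KO it was not called in untreated library 1, was 336 bases wide in untreated library 2, and 431 and 386 with LPS. All 4 LPS values were above all 4 untreated ones, with means of 535.5 ± 215.7 and 194.2 ± 140.9 covered bases (SD, n = 4, two-sided exact permutation p = 0.0286, adjusted p = 0.270). The WT LPS peaks shared their far edge, 4610 bases before the start of Il10, beyond the 4386 and 4346 bases of the untreated WT peaks. The KO LPS peaks began 4386 and 4396 bases before the start. WT LPS library 1 had the widest peak, wider than 89.2% of its list, against 11.3% and 14.1% for the untreated WT peaks.

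Beyond the other end of the gene, a region 8.86 kb away (131033826 to 131034096) was called with LPS only. Its peaks were 262 and 170 bases wide in WT and 241 in KO library 1, and no untreated library and not KO LPS library 2 called it. It was the only region gained with LPS in WT, 1 of 12 against 3.96% of all regions, and no region was gained in KO, against 2.56%. Over both genotypes the LPS mean was 168.2 ± 118.9 covered bases against 0 (n = 4, two-sided exact permutation p = 0.143, adjusted p = 0.524). Without KO LPS library 2 it would count as called in every LPS library and no untreated one.

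Between this end of Il10 and the next gene, Mapkapk2, lay a region with the same order of calls that the rule assigned to Mapkapk2, 6833 bases from that gene. Mapkapk2 encodes a kinase downstream of p38 that stabilises cytokine mRNAs. The region (131046076 to 131046867, 21.1 kb beyond Il10) was 792 and 457 bases wide in WT with LPS and 275 in KO LPS library 1, and was called in no other library. Both regions were thus called in the same 3 libraries. A neighbouring region (131042806 to 131043094, 17.8 kb beyond Il10) was called in all 8 libraries, at 201 to 289 bases.

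**Figure D3:**
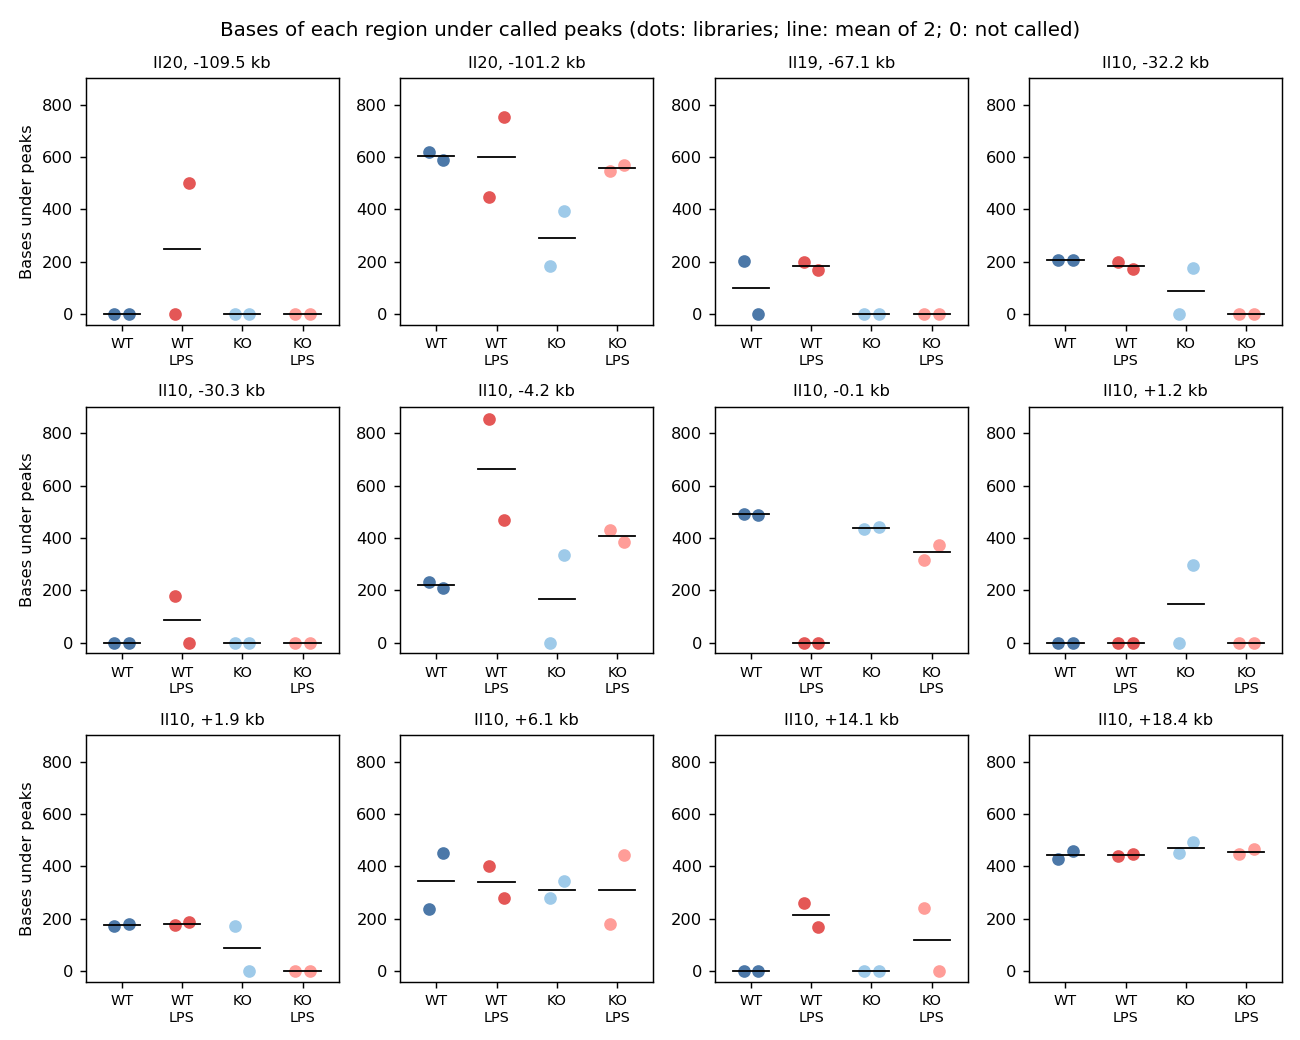
Bases of each of the 12 regions under called peaks, in order of position, titled by assigned gene and by the distance of the region's middle from the start of Il10. Dots are libraries, lines are means of 2, and 0 means not called. LPS values lie above untreated ones at -4.2 kb and below them at -0.1 kb, and the 8 values at +18.4 kb lie between 430 and 493.

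The 3 regions called in all 8 libraries lay beyond the far end of Il10 (2 regions) and upstream of Il20. The steadiest lay 13.1 kb beyond Il10 (131038039 to 131038549). Its WT peaks were 430 and 460 bases untreated and 441 and 449 with LPS, and its KO peaks 451 and 493 untreated and 446 and 465 with LPS. LPS and untreated values overlapped, with a difference of -8.25 bases between LPS and untreated (exact permutation p = 0.657, n = 4). Both untreated KO values were above both WT LPS values. The region 0.703 kb beyond Il10 (131025673 to 131026154) overlapped between the treatments, from 179 to 442 bases with LPS and from 239 to 451 without (exact permutation p = 0.943, n = 4).

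The region 6.90 kb upstream of Il20 (130918200 to 130919079) was lowest in untreated KO. WT libraries had 618 and 590 covered bases untreated, and 449 (in 2 peaks of 224 and 225) and 751 with LPS. KO libraries had 186 and 393 untreated, and 545 and 568 with LPS. Both untreated KO values were below the other 6. KO and WT means were 423 ± 176.0 and 602 ± 123.8 over both treatments (SD, n = 4, two-sided exact permutation p = 0.143, adjusted p = 1). When a call needed 50% of the region, untreated KO libraries no longer called it, and it counted as gained with LPS in KO and as called in WT only without LPS.

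Narrow regions near Il19, upstream of Il10 and inside Il10 were called mostly in WT. The region 7.11 kb from Il19 (130952571 to 130952824) had peaks of 203 bases in WT untreated library 1 and of 198 and 170 in WT with LPS, and none in KO. The region 32.1 kb before Il10 (130987552 to 130987791) had WT peaks of 206 and 209 bases untreated and 199 and 172 with LPS, and in KO only 1 of 178 bases, in untreated library 2. Inside the body of Il10 (131021617 to 131021813), WT peaks were 174 and 179 bases untreated and 176 and 188 with LPS, and KO had only 1 of 174 bases, in untreated library 1. Thus no KO LPS library called any of the 3, and both WT LPS libraries called each. They were 3 of 12 regions called in WT only with LPS, against 3.17% of all regions. All their peaks stood among the narrowest of their lists, wider than at most 12.2% of them.

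By covered bases the 2 regions at Il10 had means of 196.5 ± 16.9 (32.1 kb before the gene) and 179.2 ± 6.18 (inside it) in WT. In KO they had 44.5 ± 89 and 43.5 ± 87 (SD, n = 4, two-sided exact permutation p = 0.0571 for each, adjusted p = 1). WT and KO values overlapped or touched at both, through the single KO library that called each. Without that library each would count as called in all WT and no KO libraries, and so would the region near Il19 without WT untreated library 2. With LPS both WT lists (57691 and 55506 peaks) were longer than both KO lists (54911 and 54027). Untreated, the order was 60117 (WT), 59811 (KO), 59218 (WT) and 56346 (KO). With every list cut to its widest 54027 peaks, both WT LPS libraries and no KO LPS library still called each of the 3 narrow regions. The peak inside Il10 in WT LPS library 1, at 176 bases, was as narrow as the narrowest peak kept there. With the widest 27013 peaks, no library called any of the 3. Such cuts set equal list lengths by peak width only. The part of sequencing depth in these narrow calls was not tested.

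The remaining 3 regions were each called once. A peak of 501 bases inside Il20 (130910096 to 130910596) was called in WT LPS library 2, and 1 of 177 bases 30.2 kb before Il10 (130989447 to 130989623) in WT LPS library 1. A peak of 296 bases inside Il10 (131020892 to 131021187) was called in KO untreated library 2. None of the 3 has a replicate in its group.

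Counted per library, WT LPS libraries called the most regions of the cluster and KO libraries the fewest on average. WT libraries called 8 and 7 of 12 regions untreated and 9 and 9 with LPS. KO libraries called 5 and 7 untreated and 6 and 5 with LPS. With LPS the genotypes did not overlap: 75% of cluster regions were called in each WT library, against 50% and 41.7% in KO, beside 64.4% and 62.1% of all regions in WT and 61.6% and 60.4% in KO. More WT than KO libraries called 7 of the 12 regions (58.3%), against 26.8% of all regions, and more KO than WT libraries called 2 (16.7%), against 21.6%. The 7 include the regions inside Il20 and 30.2 kb before Il10, each called in 1 library. Regions called in all 8 libraries cannot differ in this way, and they made up 25% of the cluster but 41.3% of all regions.

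**Figure D4:**
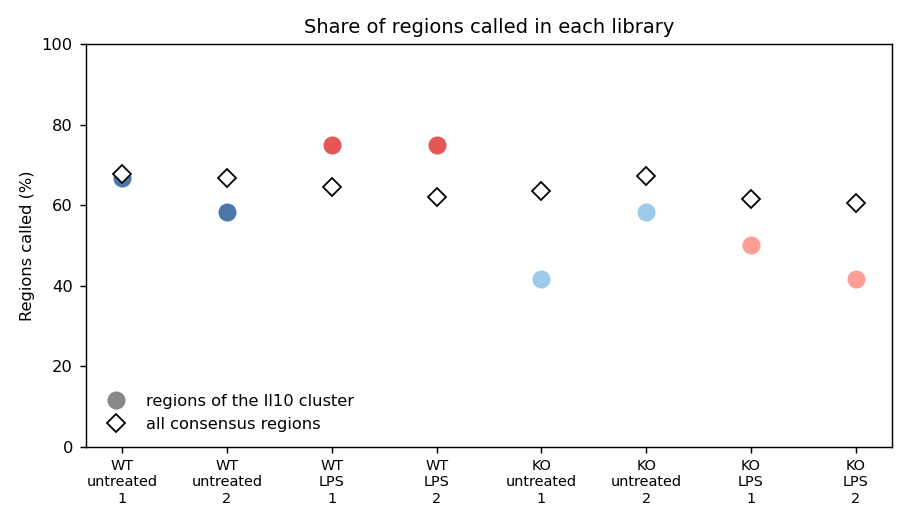
Share of the 12 cluster regions (dots) and of all 87260 consensus regions (diamonds) called in each library, in percent. WT LPS libraries call 75% of the cluster, above their share of all regions. Untreated WT libraries call 66.7% and 58.3%, below their shares of 67.7% and 66.7%. The KO libraries lie between 41.7% and 58.3%, also below theirs.

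Over the whole design, no cluster region was called in all 4 LPS and no untreated libraries, against 1.10% of all regions, and none in the reverse way, against 0.928%. None was called in all 4 WT and no KO libraries, against 0.231%, or the reverse, against 0.147%. Untreated, none was called in both WT and no KO libraries, against 2.23%, or the reverse, against 1.60%. By covered bases, 1 of 12 regions was higher in every LPS than in every untreated library, against 3.01% of all, and 1 of 12 lower, against 7.59%. Between genotypes 0 of 12 were higher in every KO than in every WT library (0.978% of all) and 0 of 12 lower (1.93% of all). No region of the genome passed the adjustment in the exact permutation tests. In these exact permutation tests 9247 regions had an unadjusted p below 0.05 for LPS and 2536 for genotype. These are the regions whose groups did not overlap, counted again. The only such value that 70 arrangements allow is a two-sided exact permutation p = 0.0286. No region could pass unless most regions of the genome reached it. The lack of passing regions was thus set by the design. For genotype, 1683 of these regions were lower in KO and 853 higher. A region called in 3 libraries or fewer could not reach the smallest p, since its uncalled libraries tie at 0. The number that chance alone would give was not worked out. In a replicate block, values were exchanged only within same-numbered pairs, and the smallest possible p was 0.125. Paired by treatment, the untreated and LPS libraries of a pair share a code in their titles. The regions at the start of Il10 and 3.76 kb before it then had exact permutation p = 0.125 each. Paired by genotype, the libraries share a number but no code, and 2 of the 12 regions moved the same way between genotypes in every pair. These were the region 32.1 kb before Il10, lower in KO as were 6.79% of all regions, and that 13.1 kb beyond it, higher in KO as were 4.33% of all.

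Around the cluster, most regions lay on the side of Mapkapk2. The 14 protein-coding genes within 300 kb held 44 regions, of which 21 (47.7%) were called in all 8 libraries, beside 25% of the cluster, a difference that was not tested. In WT 2 of the 44 regions (4.55%) were gained with LPS, against 3.96% of all regions. Another 5 (11.4%) were lost, against 5.06%. Both gained regions belonged to Mapkapk2, which had 15 regions, 9 of them called in all 8 libraries. Lost regions lay at Fcamr and Fcmr (receptors for immunoglobulins), at Eif2d (2 regions) and at Rassf5. Ikbke, a kinase of the interferon pathway, had 1 region gained and 1 lost in KO. More WT than KO libraries called 12 of the 44 regions (27.3%) and more KO than WT libraries 9 (20.5%), close to the shares over all regions.

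Of the 37 regions at the 7 receptor genes of the family, 12 were called in all 8 libraries, against 41.3% of all regions. In all LPS and no untreated libraries 1 was called, against 1.10% of all, and 1 the reverse way, against 0.928%. Il20rb, a receptor chain for interleukins 19, 20 and 24, had a region inside the gene (chromosome 9, 100473869 to 100474467) called at 465 and 557 bases in WT and 342 and 299 in KO with LPS and in no untreated library. A region 13446 bases from Il10ra, the ligand-binding chain of the interleukin 10 receptor (chromosome 9, 45282595 to 45282840), was called in every untreated library, at 189 to 224 bases, and in no LPS library. By covered bases, 4 of the 37 were higher in every LPS library, against 3.01% of all regions, and 6 lower, against 7.59%. The other family cytokines, Il22, Ifnl2 and Ifnl3, had 3 regions in all, of which 0 were higher and 2 lower.

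Among signalling genes, Socs3, a STAT3 target that limits cytokine signals, gained a region 7451 bases from the gene in all LPS libraries (chromosome 11, 117977787 to 117978168), at 259 and 382 bases in WT and 263 and 228 in KO. Jak1, a kinase of the receptor, lost a region inside the gene (chromosome 4, 101244430 to 101245114). That region was 177 to 682 bases wide in untreated libraries. Of the 73 regions at 8 such genes 6 were higher in every LPS library and 2 lower. At 8 kinases and phosphatases upstream of Il10 there were 74 regions, 2 higher and 5 lower, and Mapk14, which encodes p38 alpha, gained a region inside the gene in all LPS libraries (184 to 239 bases).

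The 18 regulators of Il10 transcription held 211 regions, of which 8 were higher in every LPS library and 23 lower. Nfkb1, an NF-kB subunit, gained 2 regions inside the gene in all 4 LPS libraries (chromosome 3, 135640063 to 135640802 and 135648252 to 135649242). The first was 700 and 574 bases wide in WT and 720 and 519 in KO, the second 530 and 799 in WT and 179 and 393 in KO. Cebpb, a C/EBP factor of activated macrophages, gained a region 53537 bases away. Bhlhe40, a repressor of Il10, lost 2 regions, and Jun lost 1. Over these pathway genes 0 regions were called in all WT and no KO libraries, against 0.231% of all regions, or the reverse way, against 0.147%. Both shares are too small for these 0 counts to set the lists apart. For covered bases with LPS the shares over all regions are the 3.01% (higher) and 7.59% (lower) given above. For calls in all 4 against all 4 libraries they are 1.10% (gained) and 0.928% (lost). The lists were not tested.

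The covered bases of the 9 Il10 regions summed in WT to 1775 and 1995 untreated and 2511 and 1730 with LPS. In KO they summed to 1339 and 2088 untreated and 1614 and 1665 with LPS. LPS and untreated sums overlapped within each genotype, and both sums of KO with LPS were below all 4 WT sums. Among the 2476 other genes with at least 9 regions, the sums most like these over the 8 libraries were those of Gm32966 (Pearson r = 0.891), LOC108168726 (0.878), Camk2d (0.877), Il20rb (0.873) and Zfp992 (0.859). The libraries share their list lengths across genes, and none of these 5 genes stayed among the 5 most alike when regions called were counted in place of covered bases.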

How the data were processed

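The 8 ATAC-seq peak lists, 1 per library, were used as deposited. Each gives peak positions on GRCm38 (mm10), with no score, height, signal or count. The submitters' processing notes name MACS2 2.1.1, Picard, Bowtie2 2.3.0 and bcl2fastq 2.17.1.14. The sources used here do not give their settings, the calling threshold, or the treatment of duplicates and cut sites, which decide what weak peaks enter a list.

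Peaks were merged in Python 3.11.15 with numpy 2.4.6. Each region took the nearest gene body among 21887 protein-coding genes (RefSeq, GRCm38.p6). The table gives no exons and no strand. Starts count from 1. Covered bases of every region were compared by a two-sided exact permutation test, 4 against 4 libraries, with Benjamini-Hochberg adjustment over all 87260 regions. The test was tested on simulated data. Gained, lost and genotype-only regions are counts without a test. Replicate differences were weakly correlated between same-numbered libraries, at 0.197 between untreated and LPS in WT and 0.147 in KO. Between genotypes, whose libraries share no code, the values were 0.203 untreated and 0.152 with LPS. The replicate numbers and the codes in the titles (such as WT15) link an untreated and an LPS library, but the labels do not say that these share an animal.

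Named genes were the 4 members, protein-coding genes within 300 kb, the 5 genes with the most similar covered bases, and genes of 5 pathway lists with a region called in all 4 against all 4 libraries, apart from a result that is not reported here. The members and lists were chosen with earlier results of these data known. Alternatives were another call rule (50%), shorter lists, 25 kb, merging across 100 bases, calls in place of covered bases, a replicate block and leaving out each library.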

Additional observations from a re-analysis of the deposited data

How the results depend on the processing

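The loss of the start of Il10 in WT (1 region) was the same under every alternative and without any 1 library. With a call needing 50% of a region, 2 cluster regions were gained in WT, 1 in KO, and 1 was called in WT only when untreated. With lists cut to the widest 54027 peaks, 3 were gained in WT, and 3 stayed WT only with LPS. Covered bases with LPS were then higher by 91 inside Il10 and by 40.5 at the region 32.1 kb before it, where they had been lower. This cut kept peaks down to 214 and 196 bases in untreated WT, but down to 176 and 164 in WT with LPS. It thus dropped narrow untreated peaks of these regions. With the widest 27013 peaks, 2 were gained in WT, 1 in KO, 2 were WT only untreated, and 0 were WT only or KO only with LPS. The peaks at the start in KO and all peaks of the 3 narrow WT regions are then no longer in the lists. By calls in place of covered bases, 0 regions separated LPS from untreated libraries. With the replicate block, 2 regions moved one way between genotypes in every pair, against 0 that separated them without it. It changed no other count. Within 25 kb, 2 regions were WT only with LPS in place of 3, and merging across 100 bases changed no count. Of the 5 genes most like Il10, 0 stayed when regions called were counted.

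Leaving out 1 library at a time gave 1 to 2 regions gained in WT, 0 to 1 gained and 0 to 2 lost in KO, and 0 to 1 gained over both genotypes. It gave 0 to 2 WT only and 0 to 1 KO only untreated, 0 to 1 WT only over both treatments, and 0 to 1 with genotypes apart by covered bases. The differences that changed sign ran from -41 to 46.7 bases (LPS minus untreated) and from -76 to 11.7 (KO minus WT) at 0.703 kb beyond Il10, from -17.8 to 3.25 (LPS minus untreated) at 13.1 kb, and from -108 to 3.58 (KO minus WT) at 8.86 kb. Depth is unknown, so whether an uncalled narrow region was closed cannot be read from these lists.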
